A study of Mus musculus with 12 samples.

Results

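The 3732 regions described here are H3K27ac peaks that were strong in NIH3T3 cells, carried no Ctr9 peak there, and had no H3K27ac peak in mouse embryonic stem cells (mESCs). They were selected on measured values: a peak of the NIH3T3 H3K27ac list entered when its fold enrichment over the local background, as macs2 gives it at the summit, was at least 10, and when it overlapped by 1 bp or more neither an NIH3T3 Ctr9 peak nor an mESC H3K27ac peak. Of the 34241 H3K27ac peaks of NIH3T3 cells, 10635 reached a fold enrichment of 10. Of these, 2945 had a Ctr9 peak, 6123 had an mESC H3K27ac peak and 2165 had both, so that the regions are 35.1% of the strong peaks and 10.9% of all. The weakest of them had a fold enrichment of 10.003 and the strongest peak just below the limit had 9.999.

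NIH3T3 is a long-established mouse fibroblast line, and the mESCs were E14 cells. Both were grown in the same medium with 10% FBS and 1000 U/ml LIF, the cytokine that keeps mESCs undifferentiated. Ctr9 was read through a GFP tag knocked into its gene, in pools of sorted GFP-positive cells of each line and not in single clones, and H3K27ac through an antibody to the modification. NELFA was read through a GFP tag in mESCs of a further line, Ser5p by antibody in those NELFA-tagged cells, and Ser2p by antibody in mESCs. Whether the cells behind the H3K27ac, Ser2p and RNA libraries carried a tag is not given in the sources used here. Every ChIP-seq library and both RNA-seq libraries were single, so no difference below has a replicate check and no p-value is given. The 95% exact Clopper-Pearson intervals in parentheses after a share, and the intervals of medians, count regions or genes within these libraries and cover counting error only.

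H3K27ac, the acetylation of lysine 27 on histone H3, is deposited by the acetyltransferases p300 and CBP and marks active promoters and active enhancers. Enhancers are stretches of DNA that raise transcription of a gene from a distance, and they differ between cell types far more than promoters do. Ctr9 is a core subunit of the Paf1 complex, which travels with RNA polymerase II and aids elongation, and the study asked whether its presence together with H3K27ac picks out the enhancers with most activity. In fibroblasts, AP-1 factors, dimers of Jun and Fos family proteins, are known to occupy many enhancers, often together with TEAD factors, the DNA-binding partners of YAP.

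The 2 H3K27ac lists were of unlike size and strength. The mESC list held 19417 peaks with a median fold enrichment of 3.98, of which 545 reached 10, against a median of 6.75 in NIH3T3 cells. The NIH3T3 Ctr9 list held 22016 peaks with a median of 4.27. Read depth behind the lists is unknown, and how far a missing mESC or Ctr9 peak reflects the depth of its library was not tested. Fibroblast identity of the RNA was clear: of 21 fibroblast marker genes, 20 were at least 2-fold higher in NIH3T3 cells on the TPM + 1 scale, and 15 of 15 mESC markers at least 2-fold lower, whereas of 12 epithelial, endothelial and blood markers none was higher.

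The summits of the 4 regions of highest fold enrichment are shown first, because they carry the strongest signal of the set. Each line gives 100 bases on either side of the summit on the plus strand of mm10, in lower case since none of the motifs searched below occurs in these windows. The Parva window lies at chr7:112428034-112428234 with a fold enrichment of 45.5, the Tuba1a window at chr15:98985602-98985802 with 38.5, the Spag6 window at chr2:18694246-18694446 with 38.3, and the Tcf12 window at chr9:72133294-72133494 with 35.5. The Parva and Spag6 windows lie at gene starts and overlap annotated exons, and the others lie outside protein-coding genes.
Parva: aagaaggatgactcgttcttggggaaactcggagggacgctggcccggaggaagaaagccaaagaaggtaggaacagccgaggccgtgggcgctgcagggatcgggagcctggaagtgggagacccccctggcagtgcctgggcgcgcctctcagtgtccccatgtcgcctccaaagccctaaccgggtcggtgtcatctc
Tuba1a: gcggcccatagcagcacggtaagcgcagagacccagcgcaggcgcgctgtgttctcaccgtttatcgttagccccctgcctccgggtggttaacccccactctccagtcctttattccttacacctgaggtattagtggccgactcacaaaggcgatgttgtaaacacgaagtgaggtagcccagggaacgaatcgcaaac
Spag6: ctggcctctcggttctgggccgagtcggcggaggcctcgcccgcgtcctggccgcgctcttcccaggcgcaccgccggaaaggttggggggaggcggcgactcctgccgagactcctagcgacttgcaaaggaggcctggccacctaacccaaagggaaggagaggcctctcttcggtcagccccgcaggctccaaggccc
Tcf12: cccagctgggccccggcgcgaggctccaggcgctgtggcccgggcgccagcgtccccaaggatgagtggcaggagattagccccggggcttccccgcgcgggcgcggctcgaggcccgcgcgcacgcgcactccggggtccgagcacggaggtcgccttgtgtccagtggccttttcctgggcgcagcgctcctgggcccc

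A further 3 windows of the same length show what lay to the side of a summit. They were picked after their letters were seen, each centred on an AP-1 match, and are set in lower case with matches to the AP-1 motif TGANTCA and to the RUNX motif TGTGGT, read on either strand, in capitals. The first comes from a second Parva region in an intron, at chr7:112467926-112468126 and 316 bases from its summit. The next lies upstream of Thbs1, the gene of the matrix protein thrombospondin 1, at chr2:118110186-118110386 and 273 bases from the summit. The last comes from a region cloned by the study as H3K27ac-positive without Ctr9, at chr2:167761339-167761539 and 267 bases from the summit, nearest to the start of Tmem189.
Parva, intron: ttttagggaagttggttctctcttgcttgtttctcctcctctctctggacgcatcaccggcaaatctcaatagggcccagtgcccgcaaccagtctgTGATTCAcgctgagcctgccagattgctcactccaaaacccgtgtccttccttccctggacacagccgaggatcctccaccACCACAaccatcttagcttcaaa
Thbs1, upstream: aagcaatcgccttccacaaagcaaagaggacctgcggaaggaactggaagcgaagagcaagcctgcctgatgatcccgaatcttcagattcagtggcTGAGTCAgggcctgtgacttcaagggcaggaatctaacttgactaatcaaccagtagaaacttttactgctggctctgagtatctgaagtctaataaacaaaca
Tmem189, cloned region: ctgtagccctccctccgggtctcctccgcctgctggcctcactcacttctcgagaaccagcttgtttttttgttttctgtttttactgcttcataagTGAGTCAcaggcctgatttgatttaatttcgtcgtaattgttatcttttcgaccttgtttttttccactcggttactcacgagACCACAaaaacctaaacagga

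The regions lay both at promoters and far from them. For 1407 regions the summit was no more than 1 kb from a protein-coding gene start (37.7%, 36.1% to 39.3%), in stretches that make up 1.52% of the genome. Introns held 1052 (28.2%), exons 203 (5.44%), and 1070 (28.7%) lay in none of these. Away from every protein-coding gene and the 1 kb around it were 1047 (28.1%, 26.6% to 29.5%). Of the strong peaks shared with mESCs and likewise without Ctr9, 3958 in number, 84.4% (83.2% to 85.5%) were at gene starts, against 37.7% of the regions. Of the 780 strong NIH3T3-only peaks that did carry Ctr9, 46.9% (43.4% to 50.5%) were at gene starts, and of the 20043 weaker NIH3T3-only peaks without Ctr9, 18.4% (17.9% to 19%).

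**Figure D1:**
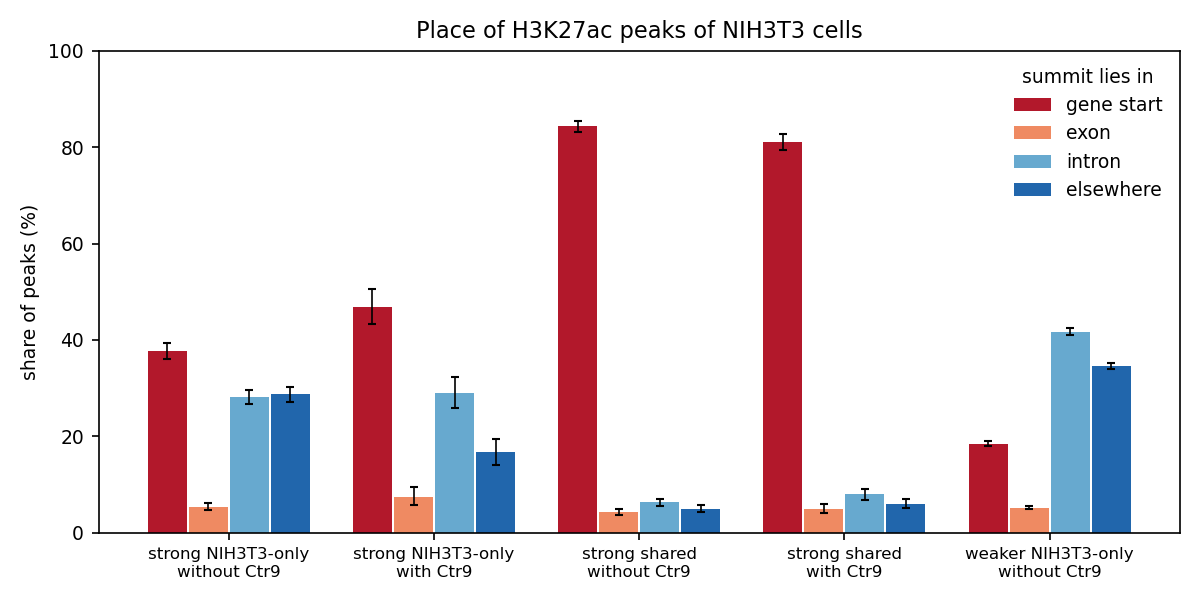
Share of peaks (y axis, %) whose summit lay within 1 kb of a protein-coding gene start, in an exon, in an intron or elsewhere, for 5 sets of NIH3T3 H3K27ac peaks (x axis), with bars for the 95% exact Clopper-Pearson interval. Gene starts hold 37.7% of the strong NIH3T3-only peaks without Ctr9 against 84.4% of the strong shared peaks without Ctr9.

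Away from gene starts, 1255 of 2325 regions (54.0%, 51.9% to 56.0%) lay inside a protein-coding gene. The median distance between a summit and the nearest protein-coding start was 7092 bases over all regions and 31328 bases over those not at a gene start. Between 1 and 10 kb lay 616 regions (16.5%), between 10 and 50 kb 836 (22.4%), between 50 and 100 kb 430 (11.5%) and beyond 100 kb 443 (11.9%). At gene starts, 69.9% of the summits were downstream of the start, with a median of 175 bases into the gene. When the starts of every transcript of protein-coding genes were taken, 47.1% of the regions were at a start instead of 37.7%.

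Transcripts that begin away from the start of their gene have levels of their own in the RNA data. These levels are estimates that divide shared reads among overlapping transcripts, and how the reads were assigned was not tested. Transcripts of the same gene are each counted below and are not independent. Within the regions, 586 transcripts of 257 protein-coding genes began more than 1 kb from the start of their gene. Of the 570 with a TPM, the transcript level scaled for length and library size, 33.3% were at least 2-fold higher in NIH3T3 cells and 3.16% at least 2-fold lower, beside 9.91% and 9.63% of all 98897 transcripts of protein-coding genes. The Sept9 transcript ENSMUST00000106354, which encodes an isoform of the septin cytoskeleton protein Septin 9, began in a region of fold enrichment 11.4 and had a TPM of 37.7 in NIH3T3 cells and was listed at 0 in mESCs, whereas the highest transcript of the gene stood at 37.7 and 39.3. In Cdk14, a cyclin-dependent kinase gene, the transcript ENSMUST00000030763 began in a region of fold enrichment 26.2 and had TPM values of 42.6 and 0.0458. For Phldb2, which encodes a protein of the cell cortex, the transcript ENSMUST00000036355 began 109220 bases from the gene start in a region of fold enrichment 29.3, with a TPM of 57.0 in NIH3T3 cells and 1.47 in mESCs.

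Starts of annotated genes that do not code for proteins were met less often. Of the 2325 regions away from protein-coding starts, 176 (7.57%, 6.53% to 8.72%) had a summit within 1 kb of such a start, close to the 6.59% of all H3K27ac peaks of NIH3T3 cells away from protein-coding starts. Among 50 lincRNAs reached in this way, 14 were at least 2-fold higher in NIH3T3 cells and 1 lower, beside 2.13% and 3.67% of all 5535 lincRNAs with a TPM. Among 35 antisense RNAs 11 were higher and none lower, beside 2.38% and 2.03% of all 2855. The lincRNA Wincr1 had the highest level, with a TPM of 93.2 in NIH3T3 cells and listed at 0 in mESCs, at a region with a fold enrichment of 22.2. Ptgs2os2, a lincRNA transcribed next to the cyclooxygenase gene Ptgs2, had 27.3 and was listed at 0. The largest difference in the other direction among the 12 of highest level was at AA465934, with 3.79 in NIH3T3 cells and 42.1 in mESCs.

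The regions were up to 6653 bases wide, with a median of 846.5. Their fold enrichment, the value they were selected on, had a median of 12.9 and a maximum of 45.5. Wider regions were stronger: median fold enrichment was 11.3 in the 549 regions of the narrowest class and 16.5 in the 207 of more than 2000 bases. The strong NIH3T3-only peaks with Ctr9 were wider, with a median of 1368 bases, and stronger, with a median fold enrichment of 17.3. At equal fold enrichment of 10 to 15, the medians were 760 bases without Ctr9 and 1023 with it, and at 20 or more they were 1200 and 1660. The regions without Ctr9 were thus narrower than those with Ctr9 within each class of strength. A wider peak offers more bases for the 1 bp overlap with Ctr9 that the rule excludes, so width is not independent of the selection. How much of the difference comes from the rule was not tested. Base composition followed place: 62.7% of the bases around summits were G or C at gene starts and 49.9% elsewhere, with a median of 43 and 9 CpG dinucleotides in 601 bases.

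Of the 5 widest regions, 3 had a transcription factor gene nearest. A stretch of 6337 bases with its summit 6538 bases downstream of the start of Zfp503, a zinc finger gene, had a fold enrichment of 13.6, and Zfp503 had a TPM of 25.6 in NIH3T3 cells and 0.0103 in mESCs. At Tbx15, a T-box factor gene of the skeleton and connective tissue, a region of 6023 bases had its summit in an exon, with TPM values of 30.9 and 1.16. In an intron of the homeobox gene Meis1, a region of 5909 bases had a fold enrichment of 19.6, and Meis1 had TPM values of 9.71 and 1.11. The widest of all, 6653 bases, was nearest to the predicted gene Gm43517, which had a TPM of 0.519 in NIH3T3 cells and was listed at 0 in mESCs. The widest gene-start region, 4437 bases, was at Gas1, which encodes a surface protein of arrested fibroblasts, with TPM values of 167 and 0.494.

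Genes nearest to the regions were more often higher in NIH3T3 cells than genes at large. The 3732 regions had 2682 nearest protein-coding genes, of which 2679 were in the RNA-seq data. On the TPM + 1 scale, 998 of these (37.3%, 35.4% to 39.1%) were at least 2-fold higher in NIH3T3 cells and 227 (8.47%, 7.45% to 9.59%) at least 2-fold lower, against 11.3% and 13.5% of all 21905 protein-coding genes. Their median log2 ratio was 0.46 (0.39 to 0.52), beside 0 over all genes. With the nearest annotated gene of any type, the median log2 ratio was 0.099 and 27.5% were higher, beside 5.56% of all annotated genes. Among protein-coding genes with a TPM of at least 1 in either cell type, 42.9% of the nearest genes were higher, beside 20% of all such genes. The median level was a TPM of 11.6 in NIH3T3 cells and 5.21 in mESCs. Silence in NIH3T3 cells was uncommon: 2250 genes (84.0%) had a TPM of at least 1 there, beside 49.2% of all genes. The remaining genes, the largest class, were within 2-fold between the cell types.

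**Figure D2:**
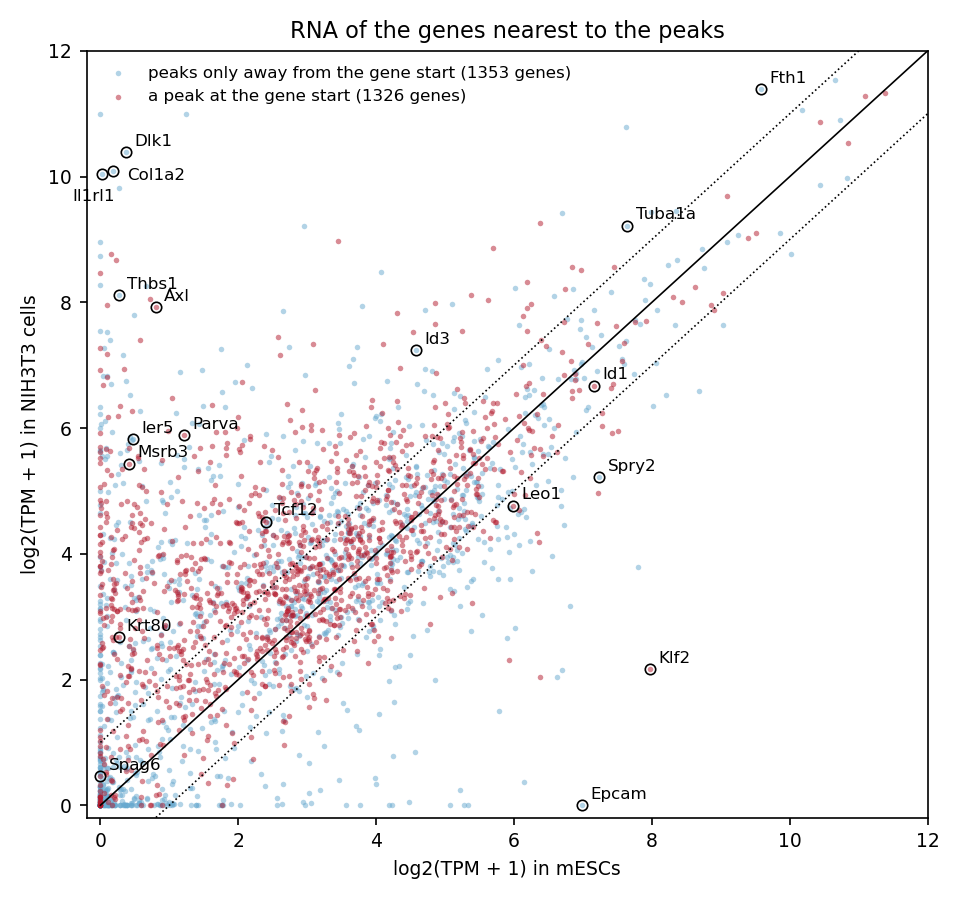
Level of each of the 2679 nearest genes in mESCs (x axis) and NIH3T3 cells (y axis), both as log2(TPM + 1), with 1 point a gene, genes with a region at their start in red and the others in blue. The solid line marks equal levels and the dotted lines a 2-fold difference, and 998 genes lie on or above the upper dotted line against 227 on or below the lower.

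The RNA difference was larger at promoters and where regions accumulated. Of 1326 genes with a region at their start, 43.4% (40.7% to 46.1%) were at least 2-fold higher in NIH3T3 cells and 4.90% lower, and of 1353 genes with regions only away from the start, 31.3% (28.8% to 33.8%) and 12%. Genes nearest to 1 region were higher in 33.8% (31.8% to 35.9%) of 2035 cases, to 2 regions in 42.3% (37.5% to 47.2%) of 416, and to 3 or more in 58.8% (52.1% to 65.2%) of 228. Median log2 ratios in these classes were 0.34, 0.65 and 1.55. With fold enrichment the share rose from 34.5% at 10 to 12 to 50.9% at 20 or more, and the median log2 ratio from 0.35 to 1.02.

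**Figure D3:**
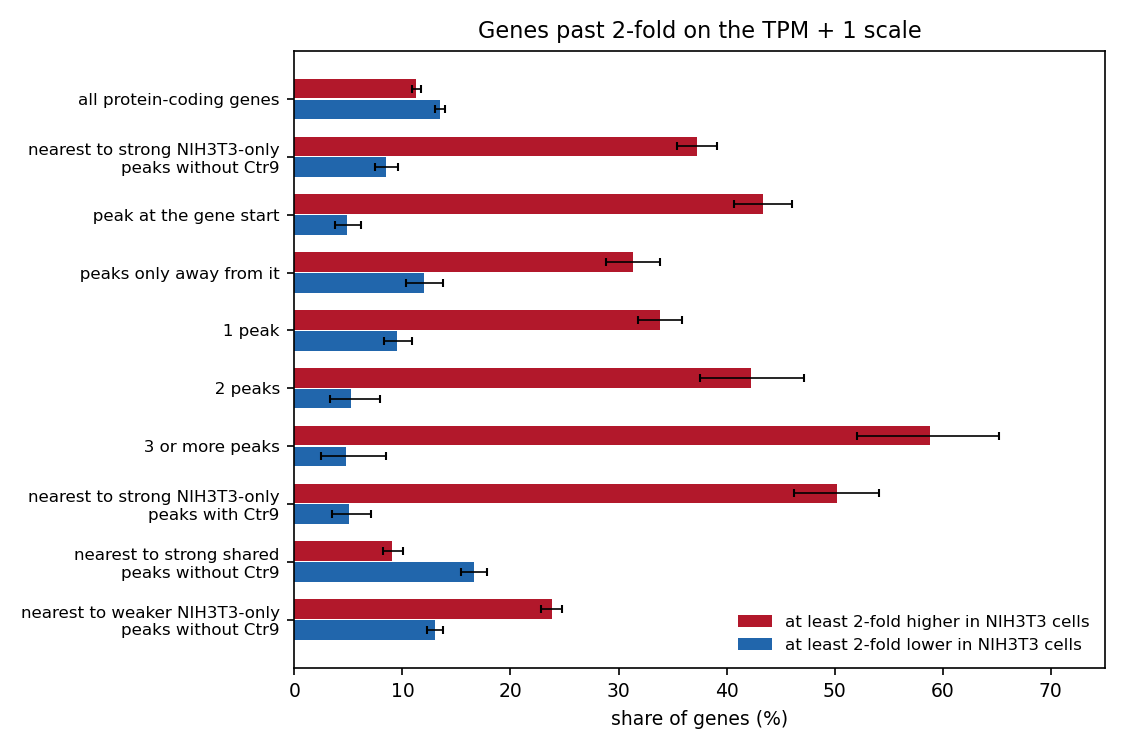
Share of genes (x axis, %) at least 2-fold higher (red) or lower (blue) in NIH3T3 cells than in mESCs on the TPM + 1 scale, with 95% exact Clopper-Pearson intervals, for all protein-coding genes, for genes nearest to the regions and their subsets, and for genes nearest to 3 other sets of peaks. The share that was higher is 33.8% for genes with 1 region and 58.8% for genes with 3 or more.

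Other sets of peaks placed these shares. Genes nearest to strong shared peaks without Ctr9 were at least 2-fold higher in NIH3T3 cells in 9.07% (8.16% to 10.1%) of 3659 cases, and those nearest to weaker NIH3T3-only peaks without Ctr9 in 23.8% (22.8% to 24.8%) of 7307. Strong NIH3T3-only peaks with Ctr9 had 50.2% (46.2% to 54.1%) of 630. At a fold enrichment of 10 to 15 the share was 35.0% (32.9% to 37.1%) without Ctr9 and 51.8% (45.4% to 58.1%) with it. At 15 to 20 it was 45.6% (41.9% to 49.3%) and 52.0% (44.8% to 59.2%), and at 20 or more 50.9% (45.3% to 56.5%) and 52.7% (46.4% to 58.9%), and in both of these classes the intervals overlap. The sets share genes: 242 nearest genes, 9.02% of those of the regions and 38.3% of those of the peaks with Ctr9, were nearest to both.

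Most genes with a region at their start also had RNA in mESCs, where the region had no H3K27ac peak. Of the 1326 genes with a region at their start, 1058 (79.8%, 77.5% to 81.9%) had a TPM of at least 1 in mESCs and 460 (34.7%) of at least 10, beside 51.3% and 29.5% of all protein-coding genes. Within 2-fold between the cell types were 686 (51.7%, 49.0% to 54.5%), beside 75.2% of all. A peak of Ser5p, the initiating form of RNA polymerase II, or of NELFA, a subunit of the pausing factor NELF, lay in mESCs on the region of 70 of them (5.28%). Counted by region at gene starts, NELFA lay on 3.91% and Ser5p on 2.7%. At gene starts the strong shared peaks without Ctr9 had 16.5% and 14.7%, and the weaker NIH3T3-only peaks without Ctr9 2.3% and 2.6%. Among all regions, 383 (10.3%) had an mESC H3K27ac peak within 1 kb, and without these the share at gene starts was 33.2% and the share of higher genes 40.1%.

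Ctr9 was absent from the regions by selection, yet often present on their genes. Over the gene body, 1 kb upstream and 5 kb downstream, 1059 of the 2679 nearest genes (39.5%, 37.7% to 41.4%) had an NIH3T3 Ctr9 peak, beside 25.8% of all protein-coding genes. Regions at the gene start or inside the gene fall in the stretch counted and are without Ctr9 by the rule. The share is thus not independent of the selection, and how far the rule altered it was not tested. It was 37.1% of genes with a region at their start and 41.9% of those with regions only away from it. At equal RNA level the share was near that of other genes. With a TPM of 10 to 50 it was 49.5% (46.4% to 52.5%) of the nearest genes and 50.7% (49.0% to 52.3%) of genes nearest to no region, and with 50 or more 72.8% (68.0% to 77.3%) and 74.3% (71.9% to 76.5%). Under a TPM of 1 the shares were 13.3% (10.2% to 16.9%) and 6.99% (6.51% to 7.48%), the 1 class in which the intervals do not overlap. The median gap between a region and the next Ctr9 peak was 65394 bases, and 264 regions (7.07%) had one within 1 kb.

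**Figure D4:**
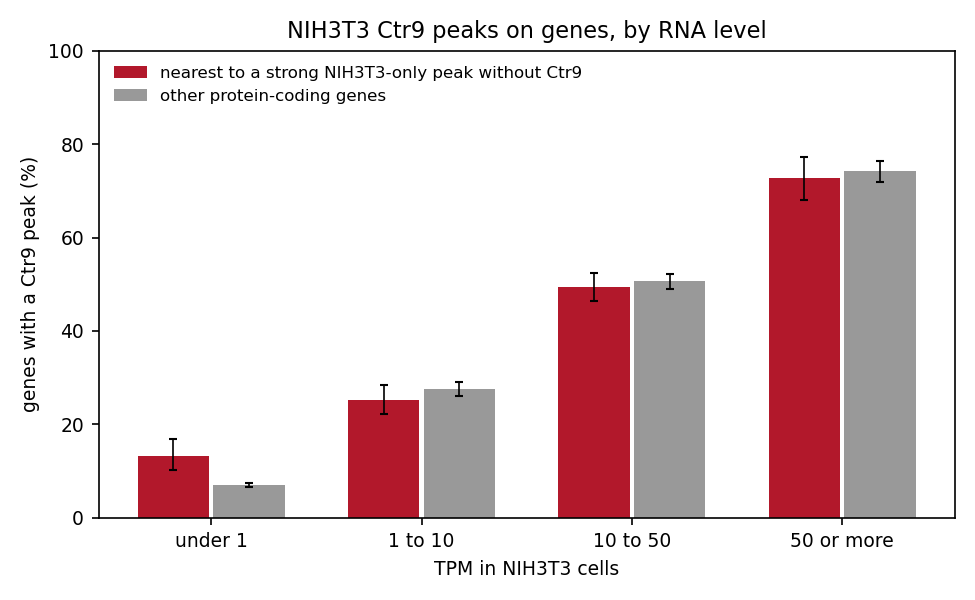
Share of genes with an NIH3T3 Ctr9 peak (y axis, %) in 4 classes of TPM in NIH3T3 cells (x axis), for genes nearest to a region (red) and all other protein-coding genes (grey), with 95% exact Clopper-Pearson intervals. From a TPM of 1 upward the intervals of both groups overlap in each class, and the share climbs to 72.8% and 74.3% at a TPM of 50 or more.

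In mESCs the regions were largely without the marks of transcription measured there. An mESC Ctr9 peak overlapped 185 regions (4.96%, 4.28% to 5.70%), a NELFA peak 61 (1.63%) and a Ser5p peak 54 (1.45%). A peak of Ser2p, the elongating form of RNA polymerase II, overlapped 10 (0.268%). The NELFA, Ser5p and Ser2p shares were 5.42%, 6.45% and 1.4% over all NIH3T3 H3K27ac peaks. Over the weaker NIH3T3-only peaks without Ctr9 they were lower than in the regions, at 0.479%, 0.838% and 0.254%. These 3 mESC lists were short, with 1980, 4490 and 1675 peaks. Of all NIH3T3 H3K27ac peaks 11.7% had mESC Ctr9. The weaker NIH3T3-only peaks without Ctr9 had it in 4.58% (4.29% to 4.87%), close to the share of the regions, while the strong NIH3T3-only peaks with NIH3T3 Ctr9 had it in 20.1% and the strong shared peaks without NIH3T3 Ctr9 in 16.7%. The strongest region with mESC Ctr9 was the one upstream of Tuba1a. Another lay at the start of Ifitm3, an interferon-induced membrane protein gene with TPM values of 376 in NIH3T3 cells and 114 in mESCs, and another in an intron of Ltbp4, a gene of the TGF-beta binding matrix proteins that had 5.30 and 58.6.

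Away from gene starts, AP-1 matches were denser beside the summits than under them. The motif TGANTCA, on either strand, occurred in the 601 bases around the summit in 28.0% (26.5% to 29.4%) of the regions. Over all H3K27ac peaks of NIH3T3 cells the share was 26.4%. At gene starts the motif was in 9.67% of the regions and 9.28% of all peaks. Elsewhere it was in 39.1% (37.1% to 41.1%) of the regions, 36.1% (35.5% to 36.8%) of all peaks and 38.0% of the weaker NIH3T3-only peaks without Ctr9. Away from gene starts, the density was 0.239 matches per kb in the first 100 bases from the summit, 0.785 at 100 to 200, 1.58 (1.47 to 1.70) at 200 to 300 and 1.21 at 300 to 400 bases, and 0.324 between 1000 and 2000 bases. The maximum was 4.89 times the level at 1000 to 2000 bases and the first 100 bases 0.736 times that level. At gene starts there was no such maximum near the summit, and the highest density, 0.355 per kb, was at 1800 to 1900 bases. Weaker NIH3T3-only peaks without Ctr9, also away from gene starts, had 1.33 (1.29 to 1.37) per kb at 200 to 300 bases, those with Ctr9 and a fold enrichment of at least 10 had 1.20 (0.972 to 1.46), and strong shared peaks without Ctr9 0.421 (0.315 to 0.553). The windows printed above for Parva, Thbs1 and the cloned region have their AP-1 match 267 to 316 bases from the summit. They were picked for that match and do not bear on where matches fall. In the cloned region nearest to Fth1, a match lay 160 bases from the summit.

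TEAD and RUNX letters were spread more evenly than AP-1 letters in the regions away from gene starts. The TEAD motif GGAATG was found in 29.7% (28.2% to 31.2%) of the regions, beside 29.3% of all peaks, and away from gene starts its density had a maximum of 0.873 (0.790 to 0.962) per kb at 300 to 400 bases, 1.54 times the level at 1000 to 2000 bases. The RUNX motif TGTGGT was found in 30.1%, beside 32.5% of all peaks. Its highest density away from gene starts, 0.931 per kb, was 1.09 times the level at 1000 to 2000 bases. That density was at 1100 to 1200 bases, inside the stretch it is compared with. At gene starts both motifs were sparser under the summit. RUNX had 0.327 per kb in the first 100 bases and 0.814 at 1000 to 2000, and TEAD had 0.345 and 0.542. The Sp and KLF motif GGGCGG, common in CpG-rich promoters, was found in 76.8% of the gene-start regions, with 4.58 matches per kb at 200 to 300 bases, and in 27.3% of the others, together 46.0% beside 40.5% of all peaks. Away from gene starts this motif too was denser beside the summit, with 0.583 matches per kb in the first 100 bases and 1.07 at 200 to 300. That maximum was 3.61 times the level at 1000 to 2000 bases. An octamer ATGCAAAT, the site of the pluripotency factor Oct4 among others, was in 1.88% of the regions and 2.12% of all peaks. Of the regions away from gene starts, 39.1% had an AP-1 match, 34.5% a TEAD match and 13.9% both in the same window. Of all peaks away from gene starts, 36.1% had an AP-1 match and 33.8% a TEAD match. None of the AP-1, TEAD and RUNX motifs was in 25.8% of the regions away from gene starts. The shares with both and with none were not counted for other peaks. Whether AP-1 and TEAD matches met more often than separate placement would give was not tested. A match is a run of letters and was not tied to binding of a factor, and none of the 5 motifs contains another.

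**Figure D5:**
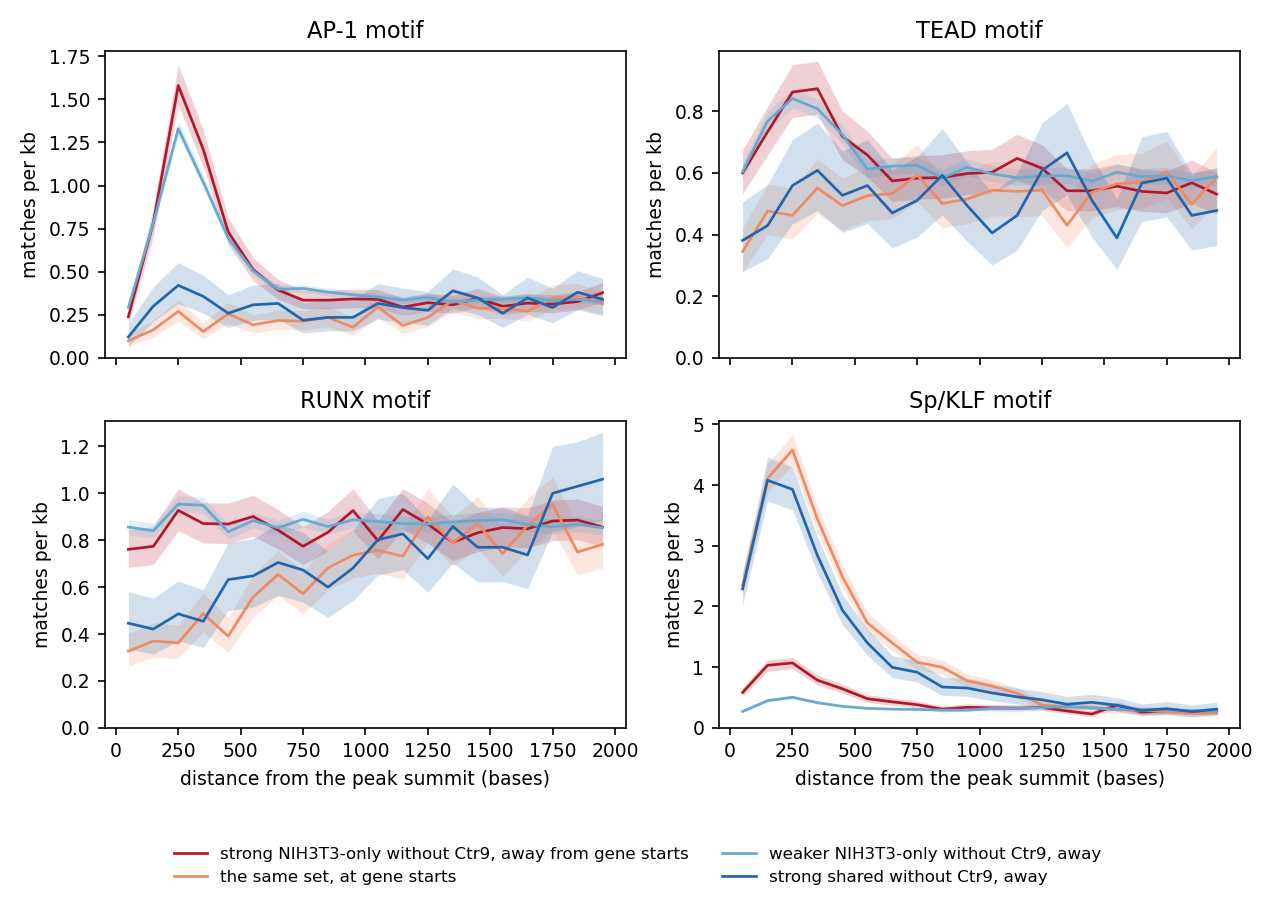
Density of matches to 4 motifs (y axis, matches per kb of sequence read, both strands) against distance from the peak summit (x axis, bases, in steps of 100), for the regions away from and at gene starts and for 2 other sets away from gene starts, with shaded 95% exact Poisson intervals. AP-1 matches in the regions away from gene starts climb from 0.239 per kb at the summit to 1.58 at 200 to 300 bases, while RUNX matches stay between 0.761 and 0.931.

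The strongest region of all was at the start of Parva, which encodes alpha-parvin, an adaptor between integrins and actin. Parva had 4 regions with fold enrichments of 15.1, 45.5, 20.9 and 11.6, of which the 1 of 45.5 spanned 2630 bases at the gene start and the other 3 lay in introns of this or a neighbouring gene. Its TPM was 58.2 in NIH3T3 cells and 1.31 in mESCs, a log2 ratio of 4.68. Mical2, an actin-oxidizing enzyme gene within 50 kb, had 28.75 and 0.351. The next region, 31999 bases upstream of the alpha-tubulin gene Tuba1a, had a fold enrichment of 38.5, and Tuba1a had TPM values of 595 and 199. Alpha-tubulin genes are near-identical copies, so the reads that kallisto gave to each are uncertain. The region upstream of Tcf12, a gene of the basic helix-loop-helix E proteins, had a fold enrichment of 35.5, with TPM values of 21.8 and 4.29.

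Near the third region by strength, the nearest gene and the expressed gene were different ones. Spag6, a gene of the sperm flagellum, had a region of fold enrichment 38.3 at its start and a TPM of 0.383 in NIH3T3 cells, and was listed at 0 in mESCs. Within 50 kb lay Bmi1, a Polycomb repressor gene, with TPM values of 53.4 and 8.88, and Commd3 with 74.4 and 24.97. Neither had a Ctr9 peak, and the next Ctr9 peak was 491574 bases away from the region. The other 6 of the 10 strongest were nearest to genes that differed less than Parva, Tuba1a and Tcf12. Dgat2, an enzyme of triglyceride synthesis, had a log2 ratio of 1.39. The genes Arid3a, Lancl2, Usp16, Rnf126 and S1pr2, at the weakest of the 10 regions, had log2 ratios between -0.05 and 0.47. The Rnf126 region had an mESC H3K27ac peak 111 bases away. Among these 10 regions the log2 ratio was highest at the strongest, with 4.68 at Parva. The order below it was uneven, with 0.47 at Spag6 and 2.11 at Tcf12, the next by strength. These 10 were picked by fold enrichment, and a trend among them was not tested.

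The largest number of regions, 9, had Tmem189 as their nearest gene, a gene of plasmalogen synthesis with TPM values of 14.97 in NIH3T3 cells and 9.57 in mESCs. The start of Cebpb lies 907 bases from that of Tmem189 and was nearly as close to all 9. Cebpb encodes the transcription factor C/EBP-beta and had TPM values of 153 and 1.76, a log2 ratio of 5.80, and it was named after its values were seen. The 9 regions reached from 19223 to 108880 bases upstream of the Tmem189 start, with fold enrichments from 14.2 to 29.9 and widths from 360 to 2960 bases. Their gaps to the next Ctr9 peak were between 15987 and 68555 bases. Of the 9, 4 held an AP-1 match within 300 bases of the summit. One of the 8 fragments that the study cloned from NIH3T3 cells as lacking Ctr9 met the region at 71884 bases.

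Next in number of regions were Foxp1, Gm17555, Ier5 and Meis1. Foxp1, a forkhead factor gene, had 9 regions with fold enrichments from 10.7 to 20.2, each inside the gene up to 495503 bases from its start, and TPM values of 18.7 and 12.2. Ier5, an immediate early gene, had 7 with fold enrichments from 10.7 to 26.5, all outside protein-coding genes, and TPM values of 55.6 and 0.383. Meis1 had 7, with fold enrichments from 10.5 to 19.6. Gm17555, a predicted gene, was nearest to 8 regions and had the higher level in mESCs, with TPM values of 1.70 and 5.26. Over all genes, 2038 were nearest to 1 region, 416 to 2, 190 to 3 or 4, and 38 to 5 or more.

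Joined when 12.5 kb or less apart, the regions formed 3058 runs, of which 2537 were single regions and 34 held 4 or more. Of these 34 runs, 29 had no NIH3T3 Ctr9 peak anywhere along their length. The regions joined are without Ctr9 by the rule, so only the gaps between them could hold a peak. Runs of other peaks were not formed, so this count has no comparison. The longest run by count, 11 regions over 49027 bases of chromosome 4, covered the interferon zeta gene cluster with Ifnz and the predicted genes around it. Of the 11 summits 9 were at gene starts, with fold enrichments from 10.1 to 14.0, and the TPM of the genes was between 0 and 0.572 in NIH3T3 cells. These genes are closely related copies, and how their reads were assigned was not tested. Runs of 7 regions lay at Tmem189, over 38556 bases, and at Dlx1 and Dlx2, a pair of homeobox genes, over 17808 bases. Lamc1, a laminin subunit gene, had a run of 6 with 2 Ctr9 peaks in it.

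All 8 fragments that the study cloned as H3K27ac-positive without Ctr9 in NIH3T3 cells met exactly 1 of the regions each, and none met an NIH3T3 Ctr9 or mESC H3K27ac peak. Of the 8 fragments cloned as carrying Ctr9, 7 met a Ctr9 peak and 2 met a region as well, nearest to Sgpp1 and Spaca6. Reporter activities of the fragments were not analysed here. In the 8 without Ctr9 the fold enrichment ran from 13.8 to 25.8, and each of the 8 lay outside protein-coding genes, between 11338 and 178800 bases from the nearest start. Krt80, a keratin gene, had TPM values of 5.37 in NIH3T3 cells and 0.199 in mESCs beside the strongest, and Msrb3, a gene of methionine sulfoxide repair, 42.2 and 0.328 beside the next. Fth1, the ferritin heavy chain gene, had 2691 and 764. For Foxn2, a forkhead factor gene, the level was lower in NIH3T3 cells, with 21.7 and 29.9. Nearest genes of the remaining 4 were Rgs3, Tmem189, Fbxl17 and Nfkbia, with TPM values in NIH3T3 cells of 13.0, 14.97, 12.8 and 48.1 and in mESCs of 4.72, 9.57, 2.51 and 29.1. Of the 8 regions, 3 held an AP-1 match, those nearest to Rgs3, Tmem189 and Fth1.

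Lists of genes, put together with earlier results of these data known, were set against the nearest genes. Of all protein-coding genes 12.2% were nearest to a region. When genes with a region within 10 kb of their body were counted instead, 119 of the 281 listed genes were met in place of 136, beside 14.7% of all protein-coding genes. The median log2 ratio given for a list covers all its genes, near a region or not, beside 0 for all protein-coding genes. Of the 21 fibroblast markers 10 (47.6%) were nearest to a region, all 10 at least 2-fold higher in NIH3T3 cells, with 25 regions among them and a list median of 5.26. Near a region or not, 20 of the 21 were higher. Col1a2, a chain of type I collagen, had 5 regions between 1704 and 85213 bases upstream of its start, with fold enrichments from 11.0 to 18.4. The Col1a2 level was a TPM of 1082 in NIH3T3 cells and 0.132 in mESCs. Col1a1, the other chain, had 3 regions and TPM values of 901 and 0.203, and Col6a1, a type VI collagen chain, had 3, up to a fold enrichment of 21.9, with 433 and 0.111. The mesenchymal homeobox gene Prrx1 had 1 region and TPM values of 183 and 0.0669. Of the 10 genes 8 had a Ctr9 peak on the gene, beside 14 of all 21 markers. Among all protein-coding genes with a TPM of 50 or more in NIH3T3 cells the share was 74.0%.

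Genes of the matrix and its remodelling were nearest to a region in 19 of 34 cases (55.9%), of which 16 were at least 2-fold higher in NIH3T3 cells and 1 lower. Over the whole list 27 of 34 were higher (79.4%), and 2 lower. Thbs1 had 4 regions, up to a fold enrichment of 20.9, with TPM values of 275 and 0.2005. The protease inhibitor genes Timp1 and Timp2 had 2 and 3 regions, Timp1 with 276 and 40.4 and Timp2 with 265 and 0.642. Fbln2, which encodes the matrix protein fibulin 2, had 2 regions and values of 304 and 0.585. Of integrin and adhesion genes 10 of 22 were nearest to a region, 6 of them higher and 1 lower, beside 12 and 2 of all 22. Cav1 and Cav2, the caveolin genes, had 2 and 1 regions, TPM values of 354 and 42.4 in NIH3T3 cells, and were both listed at 0 in mESCs. Itgb1, the integrin beta 1 gene, differed less, with 285 and 169. Of the actin and contraction genes 11 of 25 were nearest to a region and 7 of these were higher, beside 15 of all 25, among them the tropomyosin genes Tpm1 with 184 and 22.3 and Tpm2 with 155 and 12.1, while Actn4, an alpha-actinin gene, had 177 and 152.

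Of 31 growth factor, cytokine and receptor genes 19 (61.3%) were nearest to a region, 16 of them higher in NIH3T3 cells and 1 lower, beside 23 and 3 of all 31. Il1rl1, the receptor gene for interleukin 33, had 4 regions and TPM values of 1055 and 0.0106. The chemokine gene Cxcl5 had 3 regions with values of 406 and 0.174, Ccl2 had 1 with 307 in NIH3T3 cells and listed at 0 in mESCs, and Fgf7 had 2 with 168 and 0.102. Of 27 TGF-beta and BMP genes 17 (63.0%) were nearest to a region, 12 higher and 1 lower, beside 14 and 3 of all 27. The receptor genes Tgfbr2 and Tgfbr3 had regions of fold enrichment 27.3 and 20.5 at their starts, with TPM values of 14.8 and 1.36 and of 50.4 and 0.336. The inhibitory gene Smad6 had 4 regions up to 28.9, with values of 7.02 and 1.63. Id3, a target of BMP signalling that inhibits helix-loop-helix factors, had 4 regions and values of 149.6 and 23.0, whereas Id1 had 1 region at its start and was lower by less than 2-fold, at a log2 ratio of -0.48. Skil, a repressor of SMAD factors, was the 1 lower gene, with 9.22 and 20.3.

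Feedback genes of the ERK pathway did not follow the same direction. Of 12 genes 9 (75%) were nearest to a region, 2 of them at least 2-fold higher in NIH3T3 cells and 3 lower, beside 2 and 5 of all 12, and the list median was -0.44. Within 10 kb of the gene body, 5 of the 12 genes (41.7%) had a region. The phosphatase genes Dusp5 and Dusp10 were higher, with TPM values of 35.7 and 7.58 and of 23.5 and 1.70. Spry4 and Spry2, inhibitors of receptor signalling, were lower, with 3.13 and 82.1 and with 36.1 and 149.6, and Dusp1 had 4.22 and 21.5. The start of Spry4 itself carried a region, of fold enrichment 11.997. The Spry2 regions lay 233484 and 308620 bases from its start and the Dusp1 region 22761 bases. Regions strong in NIH3T3 cells and without an mESC peak thus also had nearest genes with more RNA in mESCs, at the gene start only for Spry4 among these 3.

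Transcription factor genes of AP-1 were nearest to a region in 6 of 16 cases, 4 of them higher and none lower, beside 7 and 2 of all 16. Fosl1 had a region of fold enrichment 21.5 at 2620 bases upstream of its start and TPM values of 106 in NIH3T3 cells and 0.287 in mESCs. Fosl2 had 2 regions with values of 74.6 and 1.14, and Jun had 1 with 55.2 and 3.25. Junb, with 82.95 and 35.2, and Jund, with 23.6 and 77.3, were nearest to none. Of 18 genes of TEAD factors, YAP and their targets 10 were nearest to a region, 7 higher and 1 lower, beside 13 and 2 of all 18. The receptor kinase gene Axl had 2 regions and values of 242 and 0.742, Ankrd1 2 with 45.9 and 0.0713, and Tead2 1 at its start with 64.8 and 27.6. An mESC H3K27ac peak lay 108 bases from the Tead2 region. Among 27 RUNX and other mesenchymal factor genes 14 were nearest to a region, 13 of them higher and none lower, beside 19 and 1 of all 27. Snai1, a repressor in epithelial-mesenchymal transition, had 2 regions and values of 80.0 and 2.49, Foxf2 3 with 33.6 and 0.0388, Runx2 2 with 13.85 and 0.0169, and Runx1 1 with 11.5 and 0.358.

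Of 15 writers, readers and erasers of H3K27 acetylation 5 (33.3%) were nearest to a region, 2 of them higher, beside 2 of all 15, namely Hdac5 with TPM values of 36.8 and 12.4 and Hdac7 with 12.2 and 0.602, while Hdac1 had 114.5 and 212 and Hdac3 65.8 and 51.3. Of 6 Paf1 complex genes only Leo1 (16.7%) was nearest to a region, at its start and with a fold enrichment of 12.2, and its TPM was 26.2 in NIH3T3 cells and 62.6 in mESCs. An mESC H3K27ac peak lay 84 bases from the Leo1 region, 186 bases from that of Hdac5 and 147 bases from that of Hdac1. Ctr9 itself was at 19.5 and 29.0.

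Of 15 mESC markers 2 (13.3%) were nearest to a region, close to the 12.2% of all protein-coding genes, and both were at least 2-fold lower in NIH3T3 cells. Klf2, a pluripotency factor gene, had a region of fold enrichment 14.4 at its start with TPM values of 3.48 and 251, and Tbx3 had 1 at 503072 bases with 10.1 and 38.75. The Klf2 region overlapped mESC peaks of NELFA and Ser5p. Of 12 epithelial, endothelial and blood markers 3 (25%) were nearest to a region and 1 had a region within 10 kb of its body, and none of the 3 was higher. Epcam and Krt8, epithelial genes, were listed at 0 in NIH3T3 cells and had 125 and 39.2 in mESCs, with the region 64554 and 20256 bases from the start.

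The extremes of RNA difference among the nearest genes lay far apart. The highest log2 ratio with a level in both cell types was that of Il1rl1, at 10.03, followed by Dlk1, a Notch ligand-like gene of preadipocytes, at 10.02 with 3 regions and TPM values of 1342 and 0.296. Gm11361 and Gm10260, predicted genes of 1 exon each, had 2049 and 2030 in NIH3T3 cells, with Gm11361 listed at 0 and Gm10260 at 1.37 in mESCs. Values of such gene models may be reads of a near-identical gene elsewhere, which was not tested. The lowest ratios belonged to Epcam, Klf2, Hsf2bp with 0.289 and 70.0, Krt8 and F2rl1, the last listed at 0 in NIH3T3 cells with 37.7 in mESCs. Of these 5 genes only Klf2 had its region at the gene start.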

How the data were processed

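Single ChIP-seq libraries of Ctr9 and H3K27ac and single RNA-seq libraries were used for each cell type, and single libraries of NELFA, Ser5p and Ser2p for mESCs only. According to the methods and the submitters' notes, the authors used Bowtie2 2.3.5.1 to map ChIP-seq reads to mm10, left out ENCODE blacklist regions, and took peaks past a q-value of 0.01 from MACS2 2.2.6. The deposited peak lists give a fold enrichment ratio at the summit, −log10 p-values and q-values, and a score derived from the q-value. The authors quantified RNA with kallisto 0.46.1, and the deposited tables give estimated counts and TPM per transcript. Estimated counts summed to 28849497 in NIH3T3 cells and 26400407 in mESCs and were not tested further, since each cell type had 1 library.

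Peaks were joined by overlaps of 1 bp, and each summit was assigned to the nearest start of a protein-coding gene of the GRCm38 annotation. The TPM of a gene is that of its transcript of highest expression in each cell type, and ratios are log2 of TPM + 1. A gene counted as higher or lower past 2-fold. A gene carried Ctr9 if a peak lay over its body, 1 kb upstream or 5 kb downstream. Motif letters were searched on both strands within 300 bases of a summit. Sequences are from the mm10 (GRCm38) RefSeq genome. Python 3.11.15, pandas 2.3.3, NumPy 2.4.6, SciPy 1.17.1, pysam 0.24.0, samtools 1.23.1 and Matplotlib 3.10.9 were used, and the scripts were tested on simulated data.

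Named genes were those nearest to the 10 strongest regions, the 5 with most regions, up to 4 per list by TPM in NIH3T3 cells, the 5 of highest and 5 of lowest ratio, and those at cloned fragments. All other genes named, such as the widest regions, neighbours, runs, transcript starts, non-coding RNAs, regions with mESC Ctr9 and further list genes such as Tgfbr2, Smad6, Skil, Spry4, Dusp1, Junb, Jund, Runx1 and Runx2, were chosen after their values were seen. The regions and lists themselves were chosen with earlier results of these data known. The input libraries and the reporter assays were not analysed here. Alternatives changed the fold limit, the overlap rules, the gene models, the pseudocount and the motif window.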

Additional observations from a re-analysis of the deposited data

How the results depend on the processing

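Of 88 shares, medians and means under other settings, 41 stayed within the interval of the value reported and 47 moved beyond it. Shares and widths cannot change sign, so only the median log2 ratio could change direction, and it stayed above 0. Of 6 counts, 4 stayed within 1.5 times the count reported. Counting rows of equal start and end once removed no region and left 3732, so the values under that setting, included in these numbers, could only repeat those reported. With a fold enrichment of at least 8, 6207 regions met the rule, with 33.6% at gene starts, a median width of 738 bases, 33.0% of nearest genes higher and 9.75% lower in NIH3T3 cells, a median log2 ratio of 0.31 and Ctr9 on 37.6% of the genes. With at least 15 there were 1147 regions, 44.3% at gene starts and 26.2% away from genes, a width of 1038, 47.0% higher, 6.33% lower, a log2 ratio of 0.86, Ctr9 on 42.7%, and AP-1, TEAD and RUNX motifs in 24.8%, 26.2% and 27.4%. Without regions that had an NIH3T3 Ctr9 peak within 1 kb, Ctr9 was on 35.7% of the genes. Without those that had an mESC H3K27ac peak within 1 kb, the values were 33.2% at gene starts, 30.4% away from genes, a width of 872, 40.1% higher, a log2 ratio of 0.56, Ctr9 on 37.5%, mESC Ctr9 on 3.97% and AP-1 in 29.7%.

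Gene starts held 32.5% of the regions within 500 bp, 42.6% within 2.5 kb and 47.1% with every transcript start. Away from genes were 23.7% with bodies extended by 5 kb and 20.3% with all annotated genes. The mean width was 992. With the nearest gene of any type, 27.5% were higher (5.56% of all such genes), 5.28% lower (6.71%) and the log2 ratio was 0.099. A pseudocount of 0.1 TPM gave 42.3% higher (15.5%), 12% lower (22%) and 0.62. Genes with a TPM of at least 1 in either cell type gave 42.9% (20%), 9.76% (23.8%) and 0.68, beside a median of -0.13 for all such genes. Ctr9 was on 33.5% of gene bodies with 1 kb on each side, and mESC Ctr9 within 1 kb of 7.82% of the regions. Within 150 bases of the summit AP-1, TEAD and RUNX matches were in 6.94%, 14.4% and 15.1%, and over the whole peak TEAD and RUNX in 40.4% and 41.9%, windows of other length.

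Rescaling of the TPM values, an alternative added after seeing the data, added 0.081 to log2 of the NIH3T3 TPM and moved none of the 3 RNA values beyond its interval. No paired analysis was possible because each cell type had 1 library per target. Single libraries leave the spread between cultures unknown, the depth of the peak lists is unknown, and the nearest gene need not be the one a region acts on.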
